A study of Mus musculus with 14 samples.

Results

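Accessible chromatin around 8 target genes of the canonical Wnt pathway was followed in mouse embryonic stem (ES) cells that left a medium with a GSK3 inhibitor. Accessibility was measured by ATAC-seq, an assay that sequences the DNA a transposase can reach. The genes were Lef1, Tcf7, Tcf7l1, Axin2, Nkd1, Lgr5, Sp5 and Cdx1. Peaks of all 14 libraries that overlapped by 1 bp or more were merged into 124598 regions, and a region belonged to a gene when the nearest start of a protein-coding gene, within 50 kb, was that gene's. By this rule, which used position alone, 93 regions belonged to the 8 genes, of 84402 regions with any gene. Tcf7l1 had 27 regions, Axin2 19, Lef1 14, Tcf7 12, Sp5 10, Nkd1 5, Cdx1 4 and Lgr5 2. The assigned regions farthest from a start were a Lef1 region at 46.2 kb, called in 7 libraries, and a Tcf7l1 region at 48.7 kb, called in 14. The nearest ones beyond the limit were 2 Tcf7l1 regions at 51.6 and 52.2 kb, called in 4 and 3 libraries.

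All libraries came from KH2 ES cells, labelled as strain C57BL/6, with the transgene TRE:GATA6-DSREd2. Per the study's methods it is present as a single copy and drives GATA6, a transcription factor of primitive endoderm (PrE), and the reporter DsRed2 when doxycycline (Dox) is given. Each of 7 time points had 2 libraries of 50000 cells, which were unsorted. At 0 h the cells were in a serum-free medium with LIF, the MEK inhibitor PD0325901 and the GSK3 inhibitor that the labels spell CHIR9902, and had received no Dox. At 2, 4 and 8 h they had been in serum medium with LIF and 1 µg/mL Dox for that time, without either inhibitor. At 16, 24 and 48 h they had received Dox for 12 h and then the same serum medium without it. Removal of both inhibitors, addition of serum and induction of GATA6 thus began together, no library had serum without Dox, and their parts in any difference from 0 h cannot be told apart.

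In the canonical Wnt pathway, GSK3 marks β-catenin for destruction, and an inhibitor of GSK3 lets β-catenin accumulate and enter the nucleus. There it binds DNA through proteins of the TCF/LEF family, which are repressors or activators depending on the member and on the presence of β-catenin. Several of their targets are negative feedback components of the pathway itself. In mouse ES cells GSK3 inhibition supports self-renewal, for which relief of repression by TCF7L1 is a known route.

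The sequences below are examples of regions that closed and hold the TCF/LEF core. Of the 21 regions lost at 48 h, 8 hold it (38.1%, against 19.6% of all regions with a gene lost then). Of the 6 lost at 2 h, 2 do (33.3%, against 22.2%). Of all 37 regions called in both 0 h libraries, lost or not, 13 hold it (35.1%). The sequences are 200-bp windows around the middle of regions that both 0 h libraries called and neither library of 2 h, or neither of 48 h, did. Of the regions named for this they had the highest peak scores among those whose window holds the TCF/LEF core and overlaps no exon, with at most 2 per gene. Letters are the plus strand of GRCm38 from RefSeq, and capitals mark the TCF/LEF core TCAAAG or its reverse complement CTTTGA.
Lef1 −25.6 kb, chr3:131084768-131084967: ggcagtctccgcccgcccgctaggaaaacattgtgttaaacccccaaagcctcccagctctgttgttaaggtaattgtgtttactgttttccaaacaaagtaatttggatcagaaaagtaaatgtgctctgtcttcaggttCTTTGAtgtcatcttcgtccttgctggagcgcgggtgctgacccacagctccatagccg
Tcf7 +20.99 kb, chr11:52261921-52262120: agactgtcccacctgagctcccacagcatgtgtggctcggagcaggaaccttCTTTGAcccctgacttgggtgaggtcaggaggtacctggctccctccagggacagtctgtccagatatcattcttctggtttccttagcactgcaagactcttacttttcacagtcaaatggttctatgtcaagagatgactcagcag
Tcf7l1 +35.4 kb, chr6:72753790-72753989: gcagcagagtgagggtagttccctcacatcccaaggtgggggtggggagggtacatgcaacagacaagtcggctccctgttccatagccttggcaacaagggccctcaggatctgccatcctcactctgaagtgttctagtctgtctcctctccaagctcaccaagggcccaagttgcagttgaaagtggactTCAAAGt
Axin2 +41.4 kb, chr11:108961673-108961872: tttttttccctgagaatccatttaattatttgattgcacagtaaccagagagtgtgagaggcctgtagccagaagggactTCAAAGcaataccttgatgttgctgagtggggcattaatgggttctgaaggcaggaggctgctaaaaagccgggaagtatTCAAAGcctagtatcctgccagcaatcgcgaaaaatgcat
Axin2 −22.4 kb, chr11:108897878-108898077: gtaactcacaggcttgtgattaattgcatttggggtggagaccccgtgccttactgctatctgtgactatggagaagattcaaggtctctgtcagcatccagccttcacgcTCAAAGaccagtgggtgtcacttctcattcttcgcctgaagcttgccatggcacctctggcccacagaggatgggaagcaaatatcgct
Sp5 promoter, chr2:70474712-70474911: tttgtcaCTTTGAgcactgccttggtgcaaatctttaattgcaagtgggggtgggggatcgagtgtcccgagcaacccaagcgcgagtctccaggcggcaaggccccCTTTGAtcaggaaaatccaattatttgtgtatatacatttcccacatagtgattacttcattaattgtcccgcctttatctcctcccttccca
The Axin2 +41.4 kb and Sp5 windows each held 2 cores and the other 4 windows 1 each. Distances are from the transcription start site (TSS), with + for downstream and − for upstream. The Tcf7 and Tcf7l1 regions lay in introns of those genes, the Lef1 region and both Axin2 regions were intergenic, and the Sp5 window ended just upstream of the TSS.

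Peaks were the lists deposited for each library, with scores whose scale is not stated. A score is therefore given only as a percentile among the peaks of its own library, where 100 is the highest. The lists hold no read counts, so depth is unknown, and regions without a call may still be open, at a level under what that library could call. The lists held 55588 to 65073 peaks, and replicate 2 had more than replicate 1 at 7 of 7 time points. Per the study's reporting summary, replicate experiments were performed independently. Of the regions of 9 PrE marker genes, 45 of 115 were gained at 48 h (called by both 48 h libraries and by neither 0 h library) and 8 were lost, beside 14.1% gained and 14.4% lost of all regions with a gene. Regions of 5 feeder fibroblast markers had 1 of 22 gained and 5 lost (22.7%). Regions of ES cell marker genes had 22 of 104 gained and 17 lost. Trophectoderm markers had 10 of 55 gained and 12 lost. At 2 h, 8 of the 115 PrE marker regions were gained (6.96%, against 7.88% of all regions with a gene), and the hours between were not counted for these lists. The marker gains and the differences described below come from the same series, and the part of PrE formation in those differences was not tested. In unsorted cells, a region open in fewer cells and one less open in each cell cannot be told apart.

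The number of open regions of the Wnt target genes was lowest at 48 h. It was 40 and 47 in the 0 h libraries, 39 and 44 at 2 h, 38 and 43 at 4 h, and 38 and 35 at 8 h. It was 46 and 47 at 16 h, 33 and 34 at 24 h, and 25 and 31 at 48 h. Ordered by mean ± SD (n = 2), 16 h had 46.5 ± 0.707 called regions, 0 h 43.5 ± 4.95, 2 h 41.5 ± 3.54, 4 h 40.5 ± 3.54, 8 h 36.5 ± 2.12, 24 h 33.5 ± 0.707 and 48 h 28 ± 4.24. Neighbours in this order overlapped or touched down to 8 h, whereas 8, 24 and 48 h were separate from each other. Over all regions with a gene, each library called between 45.7% and 54.0%, and for the Wnt target genes between 26.9% and 50.5%.

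Of the 93 regions, 37 were called in both 0 h libraries, 13 in 1 and 43 in neither. A total of 11 regions were called in every library, of which Axin2 had 4, Tcf7l1 3, Lef1 2, Tcf7 1 and Lgr5 1. That was a smaller share than the 19.2% of all regions with a gene. Another 21 regions were called in 1 library (16.7% of all regions with a gene). By position, 45 regions were intergenic, 33 intronic without touching an exon, and 15 overlapped an exon.

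**Figure D1:**
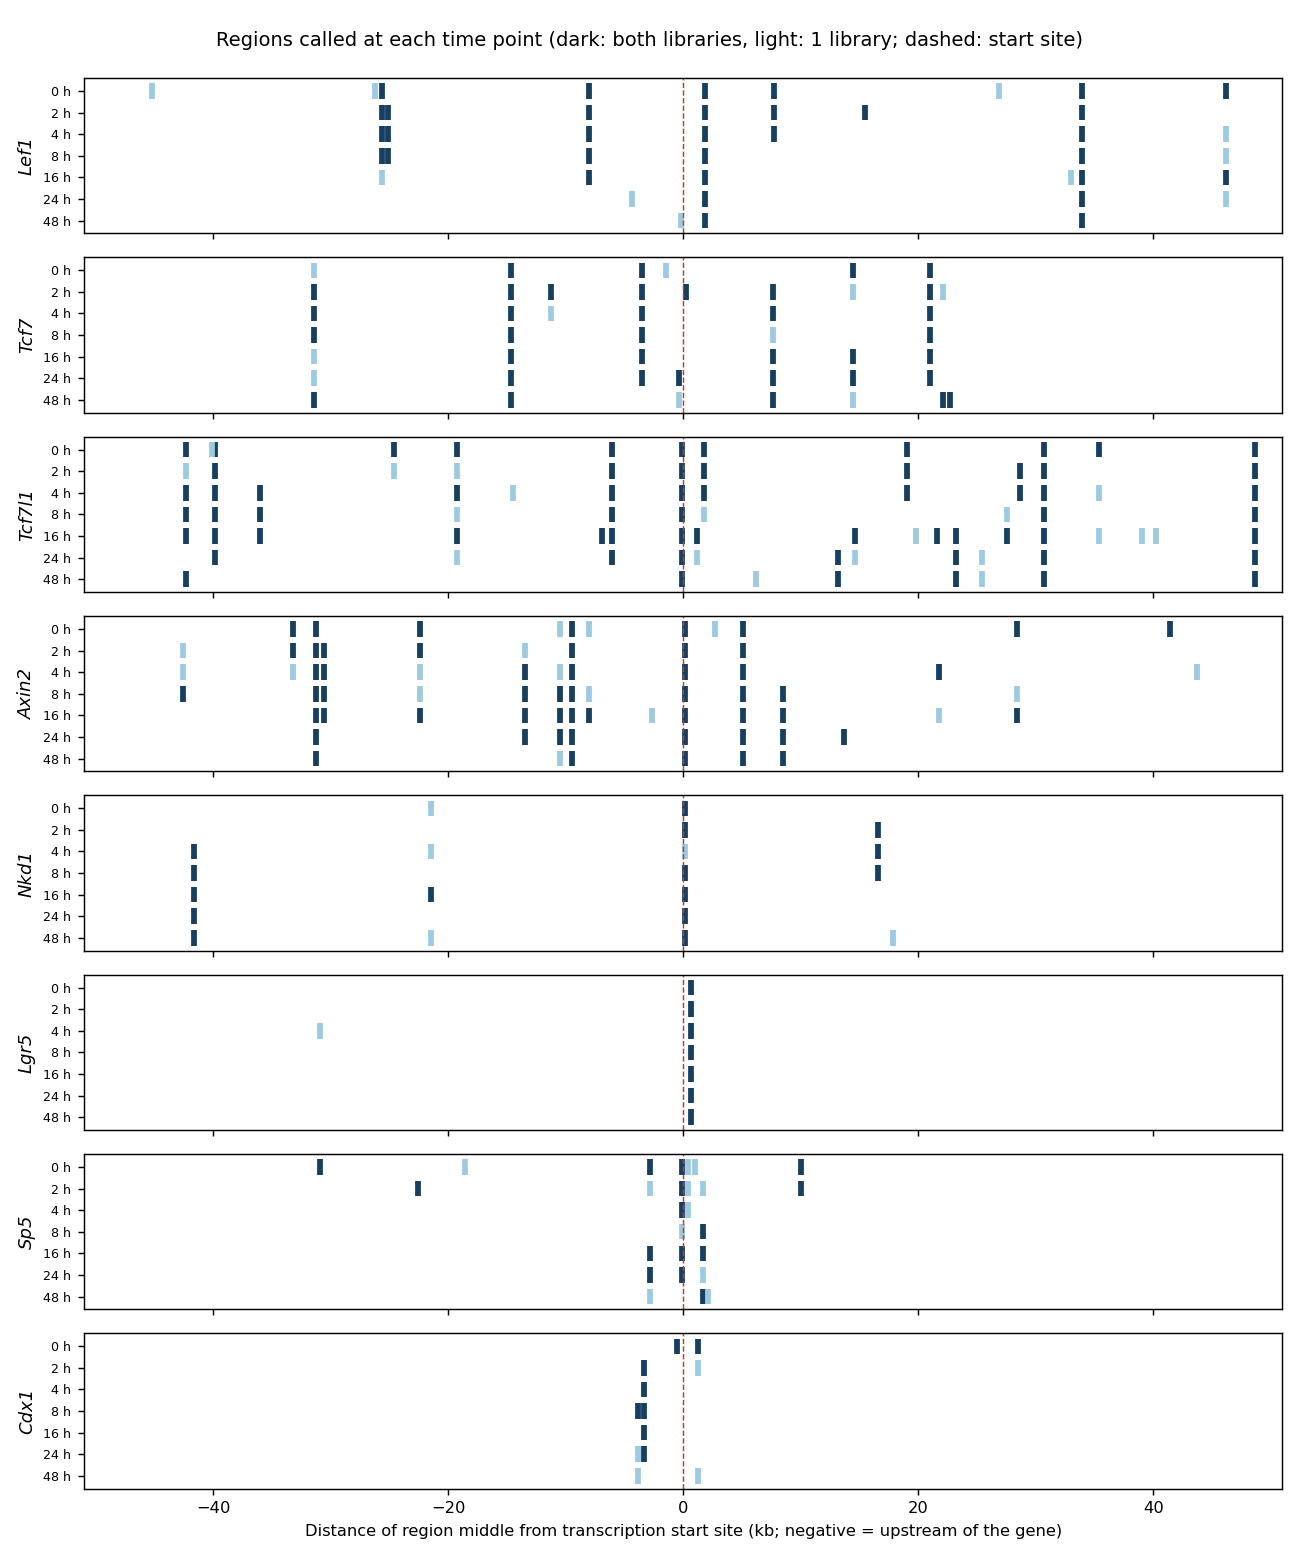
Position of each of the 93 regions (distance of its middle from the TSS in kb, x axis) at each time point (rows), for the 8 Wnt target genes. Dark bars were called in both libraries and light bars in 1. Some columns run through all 7 rows, such as Axin2 −9.5 kb, while Lef1 −8.0 kb ends after 16 h and Tcf7l1 +23.2 kb begins at 16 h.

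To describe the timing, a region was counted as gained when both libraries of a time point called it and neither 0 h library did, and as lost in the reverse case. Pairs of libraries cannot give an exact two-sided p below 0.333, hence no test was made and the counts are set beside the percentage of all regions with a gene. At 2 h, 10 of the 93 regions were gained (10.8%, against 7.88% of all regions) and 6 were lost (6.45%, against 5.61%). At 4 h, 10 were gained (background 9.12%) and 9 lost (background 6.34%). At 8 h, 11 were gained (background 10.3%) and 12 lost (background 8.27%). Both shares were near or somewhat above the background at these 3 time points, as they were at 16 h, and the differences were not tested.

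At 16 h, 14 regions were gained (background 12.6%) and 10 lost (background 8.00%), and at 24 h, 9 were gained (background 11.4%) and 16 lost (background 11.0%). At 48 h, 8 were gained (8.60%, background 14.1%) and 21 lost (22.6%, background 14.4%). Lost regions of the Wnt target genes thus outnumbered gained ones at 8, 24 and 48 h, by most at 48 h, while over all regions with a gene the shares gained and lost at 24 and 48 h were alike. Of the 37 regions open in both 0 h libraries, both libraries called 25 at 2 h (67.6%, background 75.5%), 23 at 4 h (62.2%, background 74.1%) and 19 at 8 h (51.4%, background 70.7%). The number was 25 at 16 h (67.6%, background 72.1%), 19 at 24 h (51.4%, background 65.2%) and 13 at 48 h (35.1%, background 57.9%). The share was below that of all regions with a gene at each of the 6 time points. It was higher at 16 h than at 8 h or 24 h, as was the background. All 6 comparisons share the same 37 regions and 0 h libraries. The background regions were not matched to these for distance from a start or number per gene.

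**Figure D2:**
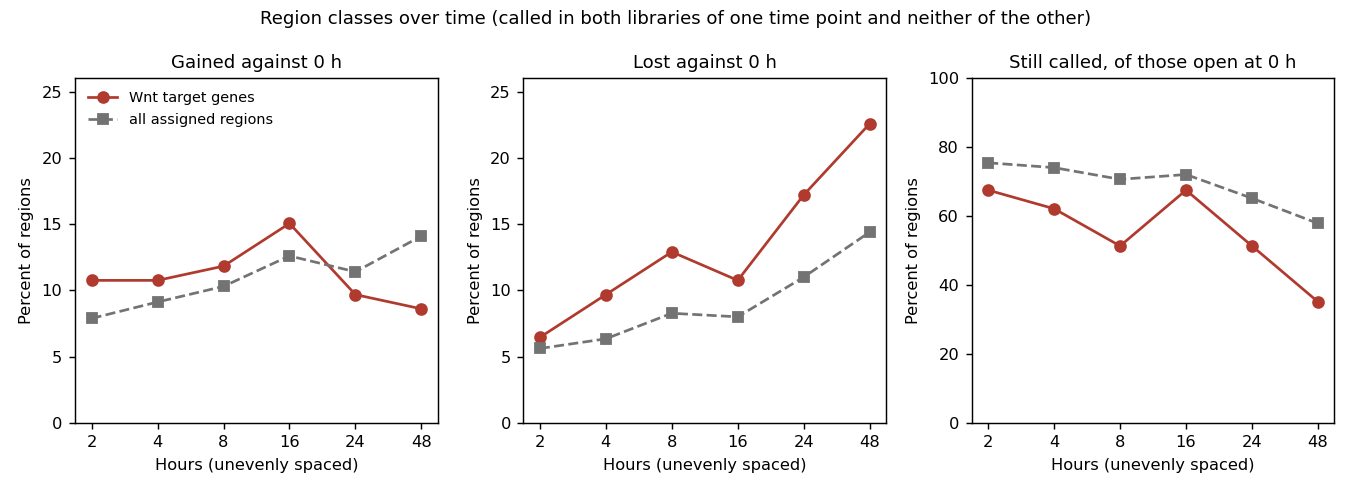
Percent of regions gained (left), lost (middle) and still called in both libraries of those open at 0 h (right), by hour on an unevenly spaced axis, for the Wnt target genes (circles) and for all regions with a gene (squares). At 48 h the Wnt target genes had 22.6% lost against 14.4%, and 35.1% still called against 57.9%.

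The last calls of the 21 regions lost at 48 h were spread over the series. The last time at which any library called them was 0 h for 3 regions, 2 h for 2, 4 h for 3, 8 h for 1, 16 h for 5 and 24 h for 7. A last call is not the time of first loss. Axin2 +28.4 kb, Lef1 +46.2 kb and Tcf7l1 +35.4 kb had no call at 2 h and were called again later. Of its regions open in both 0 h libraries, Tcf7l1 lost 7 of 11, Axin2 4 of 8 and Lef1 4 of 6. Sp5 lost 3 of 4, Tcf7 2 of 4 and Cdx1 1 of 2, while Nkd1 and Lgr5, with 1 such region each, lost none. The 3 regions called at 0 h in both libraries and in none of the 12 later ones were Axin2 +41.4 kb, Sp5 −30.9 kb and Cdx1 −0.484 kb. This pattern held for 2.97% of all regions with a gene, so 3 of 93 is near the background. No region was absent at 0 h and called in all 12 later libraries (background 1.15%). A further 19 regions were open only in between, called in both libraries of some time point from 2 to 24 h but in neither at 0 h or 48 h, against a background of 12.4%.

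For a test over all libraries, each region called in 2 to 12 of them was compared with time by an exact two-sided permutation test, adjusted by the Benjamini-Hochberg method over 79559 regions. Of 60 regions of the Wnt target genes tested, 8 fell (background 12.3%) and 4 rose (background 12.1%) at an adjusted p under 0.05. At an unadjusted p under 0.05, 16 went down (background 23.7%) and 7 up (background 22.9%). For these regions the background is that of all regions tested, with or without a gene. Regions called in 2 or in 12 libraries could not pass at an adjusted p under 0.05, in the background too. Their smallest possible p of 0.022 gave an adjusted p of 0.0541 (exact permutation test). The share that fell was thus near the background, and the share that rose was below it. The number of called regions of each gene was compared with time by a two-sided permutation test with 100000 shuffles, adjusted over 14456 genes. By this test Lef1 fell (background 9.61%), and none of the 8 rose (background 11.1%). The median Spearman's rho was -0.300 over the 8 genes and 0 over all genes tested.

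**Figure D3:**
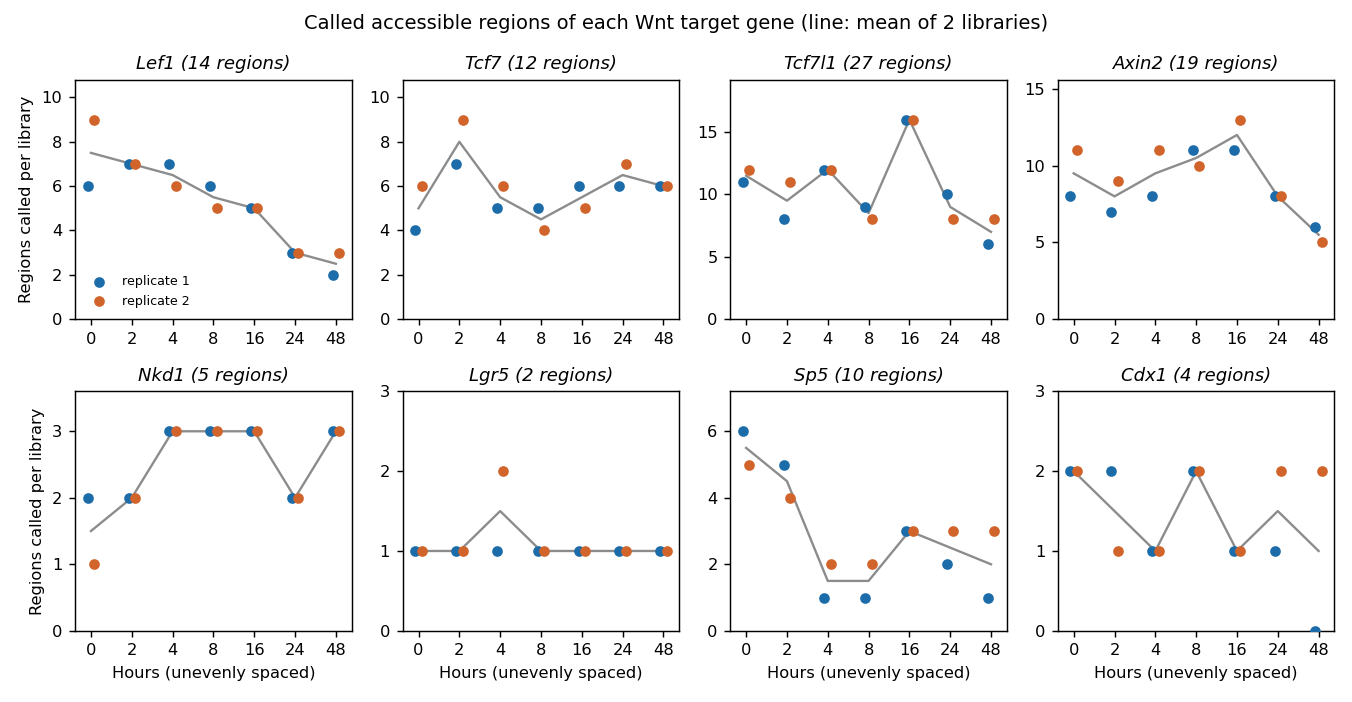
Number of called regions (y axis) in each library by hour (x axis, unevenly spaced) for each gene, with replicate 1 in blue, replicate 2 in orange and a line through the mean of 2 libraries. Lef1 went from 6 and 9 at 0 h to 2 and 3 at 48 h, Sp5 from 6 and 5 at 0 h to 1 and 2 at 4 h, and both libraries of Tcf7l1 were at 16 at 16 h.

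Among the DNA-binding members, Lef1, which encodes a TCF/LEF factor that activates transcription with β-catenin, had the clearest fall. Its libraries called 6 and 9 of 14 regions at 0 h, 7 and 7 at 2 h, 7 and 6 at 4 h, and 6 and 5 at 8 h. They called 5 and 5 at 16 h, 3 and 3 at 24 h, and 2 and 3 at 48 h. The 24 h and 48 h libraries lay below every earlier one, while the 0 h libraries spanned those of 2 and 4 h. The Spearman's rho with time was -0.92 (permutation p = 3e-05, adjusted p = 0.00195 over 14456 genes). Without the 0 h libraries rho was -0.96 (permutation adjusted p = 0.00316). With 1 replicate number left out, the 7 remaining libraries gave an adjusted p of 0.258 (without replicate 1) or 0.31 (without replicate 2) by the same permutation test.

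Of the Lef1 regions 3 passed the trend test, all of them falling. The region at −8.0 kb (chr3:131102084-131102774, intergenic) was among the strongest peaks of the 0 h libraries, at percentiles 97.7 and 95.8. Both libraries called it up to 16 h, where it stood at 83.6 and 86.1, and none called it at 24 h or 48 h (adjusted p = 0.0130, exact permutation test). The region at −25.6 kb (chr3:131084665-131085070), whose sequence is shown above, began at 95.2 and 95.8, stood at 47.5 and 50.0 at 8 h, and was called in 1 library at 16 h and in none afterwards (adjusted p = 0.0130, exact permutation test). Both regions thus went from the top of the ranking at 0 h to no call by 24 h.

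The intronic region at +7.7 kb (chr3:131117975-131118454) was called in all 6 libraries up to 4 h, at percentiles from 17.8 to 59.3, and in none from 8 h (adjusted p = 0.0130, exact permutation test). A neighbour of the −25.6 kb region, at −25.1 kb, was absent at 0 h and called in both libraries at 2 h, at 70.7 and 86.6, and still at 4 and 8 h. Of the other regions, +1.9 kb and +33.9 kb in introns of Lef1 were called in every library, and +46.2 kb was in both libraries at 0 h and 16 h and in neither at 48 h. The TSS itself carried no called region, and the nearest, at −0.174 kb, was in 1 library at 48 h.

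Tcf7 encodes TCF1, another mostly activating member of the family. Its libraries called 4 and 6 of 12 regions at 0 h, 7 and 9 at 2 h, 5 and 6 at 4 h, 5 and 4 at 8 h, 6 and 5 at 16 h, 6 and 7 at 24 h, and 6 and 6 at 48 h. Both 2 h libraries were above those of 0 h, and the 48 h libraries were within the range of 0 h. Time and number showed no trend (rho = 0.09, permutation adjusted p = 0.859).

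Within this level the set of open regions differed between the ends of the series. The regions at +20.99 kb (chr11:52261732-52262309, intronic, sequence above) and −3.5 kb (chr11:52286205-52286878) were called in all 12 libraries up to 24 h and in neither at 48 h. The −3.5 kb region stood at percentiles 77.2 and 73.5 at 0 h. Conversely, +22.1 kb, +22.7 kb and +7.6 kb were gained at 48 h. The +7.6 kb region was called in both libraries already at 2 h, at 68.8 and 71.6, and stood at 9.41 and 2.62 at 48 h. The region nearest the TSS, at +0.288 kb, was called at 2 h only, at 5.12 and 14.9.

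Tcf7l1 encodes TCF3, the family's main repressor in ES cells, and had the most regions. Its libraries called 11 and 12 of 27 regions at 0 h, 8 and 11 at 2 h, 12 and 12 at 4 h, and 9 and 8 at 8 h. They called 16 and 16 at 16 h, 10 and 8 at 24 h, and 6 and 8 at 48 h. Both 16 h libraries, which also called the most over all regions with a gene, exceeded all others. Both 48 h libraries lay below those of 0 h. The trend was not past the threshold (rho = -0.39, permutation adjusted p = 0.332).

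Single regions of Tcf7l1 moved in both directions. The intronic region at +1.8 kb (chr6:72787163-72787828) was a strong peak at 0 h, at percentiles 94.6 and 93.9, stood at 73.1 and 74.5 at 4 h, was called in 1 library at 8 h at 5.32, and in none later (adjusted p = 0.0130, exact permutation test). The +19.0 kb region (chr6:72769870-72770569) went from 74.7 and 60.2 at 0 h to 5.52 and 23.0 at 4 h and was then absent (adjusted p = 0.0130, exact permutation test). Each had a call in all libraries up to 4 h.

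In the opposite direction, +13.2 kb (chr6:72775813-72776331) was called only at 24 h, at 17.3 and 32.4, and at 48 h, at 85.6 and 85.7. The +23.2 kb region (chr6:72765788-72766240) was called in all 6 libraries from 16 h and in none before. The adjusted p of each was 0.0130 (exact permutation test). The +1.8 kb region that closed lay between the TSS and both of these, and the +19.0 kb region lay between them.

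Other Tcf7l1 regions were lost without passing the trend test, which −6.0 kb, called in 12 libraries, could not pass at all. The −6.0 kb region (chr6:72794773-72795784) was at 92.2 and 89.6 at 0 h and at 97.2 and 97.5 at 2 h, was still called at 24 h at 27.5 and 22.0, and was absent at 48 h. The +35.4 kb region (sequence above) was at 73.7 and 74.4 at 0 h, was called in neither library at 2 h, and was in 1 library each at 4 h and 16 h. The promoter region, which holds the TSS, was called in all 14 libraries at percentiles from 47.6 to 87.9.

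**Figure D4:**
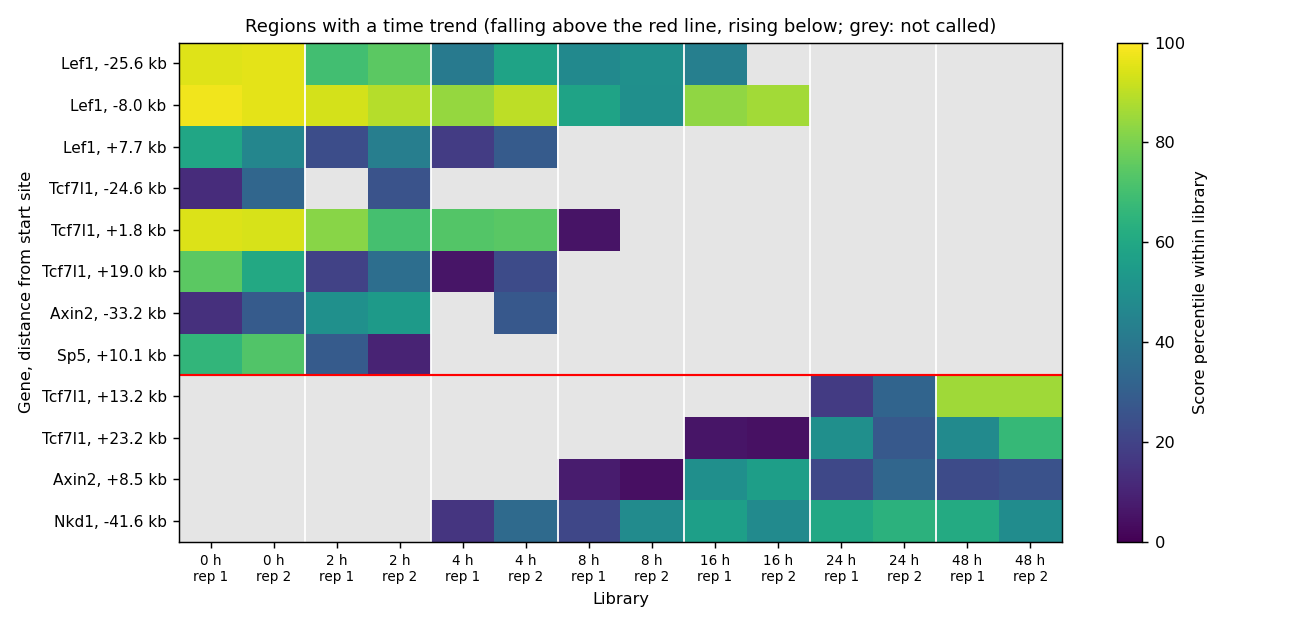
Score percentile within its library (colour) of the 12 regions with a time trend, in each of the 14 libraries, with grey for not called. The 8 falling regions (above the red line) and the 4 rising ones (below) are named by gene and distance from the TSS in kb. The Lef1 and Tcf7l1 regions with the highest percentiles at 0 h have no call from 24 h.

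Axin2, Nkd1 and Lgr5 belong to the regulators of the signal. Axin2 encodes a scaffold of the complex that destroys β-catenin and is a widely used target and feedback gene of the pathway. Its libraries called 8 and 11 of 19 regions at 0 h, 7 and 9 at 2 h, 8 and 11 at 4 h, and 11 and 10 at 8 h. They called 11 and 13 at 16 h, 8 and 8 at 24 h, and 6 and 5 at 48 h. Both 48 h libraries, and 1 of those at 2 h, were below the range of 0 h, and the trend was not past the threshold (rho = -0.30, permutation adjusted p = 0.455).

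The promoter region of Axin2, +5.1 kb, −9.5 kb and −31.2 kb were called in all 14 libraries. Of these, +5.1 kb went from percentiles 67.4 and 68.5 at 0 h to 29.4 and 5.88 at 48 h. Likewise −31.2 kb went from 74.2 and 71.4 to 33.3 and 18.3, whereas −9.5 kb went up from 49.6 and 26.5 to 93.7 and 89.7. The promoter region (chr11:108920041-108920944) holds the TSS and stood at percentiles from 39.8 to 86.9. Of the other regions, +41.4 kb (chr11:108961460-108962084) was at 40.4 and 59.0 at 0 h and was not called again. The −22.4 kb region was at 38.8 and 42.5 at 0 h and at 56.2 and 80.0 at 16 h, and was called in no library at 24 or 48 h.

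The intronic region at +8.5 kb (chr11:108928700-108929070) was absent up to 4 h and called in all 8 libraries from 8 h, highest at 16 h with 49.8 and 56.0 (adjusted p = 0.0130, exact permutation test). Beside the −31.2 kb region, −30.5 kb was absent at 0 h and then at 88.9 and 81.3 at 2 h. It was called in both libraries up to 16 h and in neither afterwards. A region at −33.2 kb fell (adjusted p = 0.0130, exact permutation test, and 0.0605 without the 0 h libraries), with both libraries at 0 and 2 h, 1 at 4 h and none later. A Tcf7l1 region at −24.6 kb also fell, with both libraries at 0 h, 1 at 2 h and none later (adjusted p = 0.0451, exact permutation test). With a replicate block it was not past the threshold (exact permutation test, adjusted p = 0.0555).

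Nkd1, which encodes a feedback inhibitor that binds Dishevelled, had few regions. Its libraries called 2 and 1 of 5 regions at 0 h, 2 and 2 at 2 h, 3 in each library at 4, 8, 16 and 48 h, and 2 and 2 at 24 h. The 0 h libraries were at or below all later ones. The mean was 1.5 ± 0.707 (SD, n = 2) at 0 h and 2.67 ± 0.492 (n = 12) later (exact permutation test over 91 sets, p = 0.0549, adjusted p = 0.431). The later libraries come from several time points, so their SD includes differences over time. The test takes no account of the 2 libraries per time point. The promoter region was called in 13 of 14 libraries. The −41.6 kb region (chr8:88479188-88480333) was absent at 0 and 2 h and called in all 10 libraries from 4 h, from 15.3 and 34.5 at 4 h to 61.2 and 48.7 at 48 h (adjusted p = 0.0130, exact permutation test). The call was lost with 50% of the region covered (adjusted p = 0.513) and without the 0 h libraries (adjusted p = 0.0622), by the same exact permutation test. An intronic region at +16.6 kb was called in both libraries at 2, 4 and 8 h only.

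Lgr5 encodes a receptor for R-spondins, which strengthen the response to Wnt ligands, and marks stem cells in several adult tissues. Its promoter region (chr10:115586043-115588112), 2070 bp wide, was called in all 14 libraries at percentiles from 49.2 to 77.4. The remaining region, at −30.9 kb, was in 1 library at 4 h. Its count showed no trend at this definition of the start (rho = -0.14, permutation adjusted p = 0.934). Where every transcript start was used, other regions joined the gene and it fell (rho = -0.87, permutation adjusted p = 0.0039).

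Sp5 and Cdx1 are transcription factor genes that are direct targets in several tissues, Sp5 encoding a repressor of the Sp family and Cdx1 a caudal-type homeodomain protein. Sp5 libraries called 6 and 5 of 10 regions at 0 h, 5 and 4 at 2 h, 1 and 2 at 4 h, and 1 and 2 at 8 h. They called 3 and 3 at 16 h, 2 and 3 at 24 h, and 1 and 3 at 48 h. The 0 and 2 h libraries were above every later one. The mean was 5.5 ± 0.707 (SD, n = 2) at 0 h and 2.5 ± 1.24 (n = 12) later (exact permutation test over 91 sets, p = 0.022, adjusted p = 0.313). As with Nkd1, the later SD includes differences over time, and the test takes no account of the 2 libraries per time point.

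The trend of Sp5 was not past the threshold either (rho = -0.52, permutation adjusted p = 0.153). In the comparison of 0 h with all later libraries, whose smallest possible p is 0.011, 0 of 14456 genes had an adjusted p under 0.05. Unadjusted, 11.2% of genes had a p under 0.05 (5.95% with more regions at 0 h), and Sp5 was the only one of the 8 genes to do so.

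The Sp5 promoter region (chr2:70474408-70475215), which holds the TSS and the sequence shown above, was at percentiles 72.5 and 62.3 at 0 h and at 53.8 and 38.6 at 4 h. It was called in 1 library at 8 h, at 51.8, in both at 16 h, at 21.1 and 9.29, in both at 24 h, at 2.12 and 4.83, and in neither at 48 h. It was the only promoter region that held a TSS among the 8 genes and was not called at 48 h. The +10.1 kb region (chr2:70484612-70485353) went from 65.8 and 72.8 at 0 h to 28.8 and 9.81 at 2 h and was not called later (adjusted p = 0.0130, exact permutation test, and 0.0622 without the 0 h libraries). The −30.9 kb region was called at 0 h only, at 9.02 and 17.1. In contrast, +1.7 kb, which overlaps an exon, was absent at 0 h and called in 1 library at 2 h and 24 h and in both at 8, 16 and 48 h.

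Cdx1 libraries called 2 and 2 of 4 regions at 0 h, 2 and 1 at 2 h, 1 and 1 at 4 h, 2 and 2 at 8 h, 1 and 1 at 16 h, 1 and 2 at 24 h, and 0 and 2 at 48 h. Its count was therefore close to flat (rho = -0.30, permutation adjusted p = 0.468), but different regions made it up. The regions at −0.484 kb and +1.2 kb were called in both 0 h libraries, the latter at percentiles 74.6 and 74.4. After 0 h the first was not called, and the second was in 1 library at 2 h, at 2.89, and in 1 at 48 h. The −3.3 kb region was absent at 0 h, called in both libraries at 2 h at 31.7 and 54.6, and in all libraries to 24 h, at up to 86.2, but in neither at 48 h.

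The TCF/LEF core was counted, on either strand, within 200-bp windows centred on the regions. It occurred in 23 of the 93 regions (24.7%), in 13.2% of all regions with a gene and in 14.3% of all merged regions. Of the 37 regions open in both 0 h libraries, 13 held it (35.1%), against 13.2% of all regions open at 0 h, and of the 21 lost at 48 h, 8 held it (38.1%), against 19.6% of all lost regions. None of the 8 regions gained at 48 h held it in this window, against 13.0% of all gained regions. The same was true of the 10 regions gained at 2 h, against 14.5% of all. These absences held for the window alone, since with the whole region searched 2 of the 8 regions gained at 48 h held the core (25.0%, against 28.6% of all) and 3 of the 10 gained at 2 h did (30.0%, against 33.4% of all). In the window, 2 of the 6 lost at 2 h held it (33.3%, against 22.2% of all lost then). By gene, Axin2, Tcf7 and Tcf7l1 had 5 regions with the core each, Lef1 and Sp5 3 each, Cdx1 and Lgr5 1 each, and Nkd1 none.

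The GATA core AGATAA, or its reverse complement TTATCT, occurred in 13 of the 93 windows (13.98%), against 15.2% of all regions with a gene. None of the 8 regions gained at 48 h held it, against 29.7% of all regions gained at that time. Of the 10 regions gained at 2 h, 4 held it (40.0%, against 23.6% of all regions gained then, and 40.0% against 40.9% where the whole region was searched), namely Axin2 −30.5 kb, Cdx1 −3.3 kb, Nkd1 +16.6 kb and Tcf7 −11.3 kb. These shares describe letters in a window. Regions of a gene share a locus and are not replicates, so no test was made.

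Other genes of the pathway were taken from 2 lists. Of 14 tested core components, Tcf7l2, a further TCF/LEF member, rose (rho = 0.84, permutation adjusted p = 0.00605), from 8 and 11 called regions at 0 h to 13 and 16 at 48 h, and Apc, a scaffold of the destruction complex, fell (rho = -0.73, permutation adjusted p = 0.0263). The Lef1 and Tcf7l2 genes of the same family thus moved in opposite directions. Of 15 other target and feedback genes, 4 fell, namely Myc, Cdx4, Cd44 and Tnfrsf19, and 1 rose, Apcdd1, an inhibitor of Wnt signalling at the membrane. Over all 14456 genes tested, 11.1% rose and 9.61% fell. The 1 of 14 core components in each direction was not above these shares. No difference between a list and all genes was tested. Myc, a growth-promoting transcription factor, had 9 and 11 called regions at 0 h and 3 and 3 at 48 h (rho = -0.97, permutation adjusted p = 0.00146). At 48 h the regions of these 15 genes had 17 of 121 gained and 28 lost (23.1%), and those of the core components 15 of 123 gained and 11 lost (8.94%), beside the backgrounds of 14.1% and 14.4%.

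The genes whose counts per library were most like those of the members were named from 7140 genes with at least 5 regions, by Pearson's r over 14 libraries, whose points share each library's depth and peak number. For Lef1 they were Sqle (r = 0.951) and Slc9a9 (r = 0.939), for Axin2 Tasp1 (r = 0.920) and Csf3r (r = 0.891), and for Tcf7l1 Fgfr2 (r = 0.917) and Bcl3 (r = 0.880). For Sp5 they were Tmc3 (r = 0.895) and Marco (r = 0.883), for Tcf7 Dppa2 (r = 0.866) and Papss1 (r = 0.819), and for Nkd1 Celf6 (r = 0.921) and Eif4g3 (r = 0.878). Fgfr2 shared the peak of Tcf7l1, with a mean of 9.5 called regions at 16 h, 7 at 0 h and 4 at 48 h. These are the highest of many values and are given as a description.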

How the data were processed

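ATAC-seq was performed in 14 libraries, 2 at each of 7 time points. The authors processed reads with the ENCODE ATAC-seq pipeline and deposited 1 peak list per library, whose names point to an irreproducible discovery rate filter and a blacklist filter; the aligner is not given in the sources used here. Each peak in the deposited lists carries 1 unnamed score, used only to rank peaks within a library. The submitters' notes name mm10 and GRCm38, and 0 of 839049 peaks ended past a GRCm38 chromosome. Peaks were merged into regions (median width 489 bp), called where at least 1 bp was covered, and assigned with GENCODE M21 starts. Trends were tested by permutation (python 3.11.15, numpy 2.4.6, pandas 2.3.3) and adjusted by the Benjamini-Hochberg method at 0.05; scripts were tested on simulated data. Smallest possible p was 1e-05 for shuffles. Depth is unknown from the lists, so no interval that needs it is given. Members, gene lists and tests were chosen with earlier results of these data known. Named regions were promoter regions, those called only at 0 h or only later, up to 2 lost and 2 gained per gene at 2 h and 48 h by score, and the 10 with the smallest trend p; the other regions given with a distance were named after their values were seen. Sequences were read with pyfaidx 0.9.0.4 from RefSeq's GRCm38 genome. Alternatives were 50000 peaks per library, 50% coverage of a region, merging within 100 bp, every transcript start, limits of 20 and 100 kb, calls in at least 1 library, a replicate block, base pairs covered, other motif settings, and leaving out the 0 h libraries or a replicate. Deviations from the time point means gave no sign that replicate numbers pair libraries, with correlations between -0.0152 and 0.0124 over 21 pairs. Such correlations may miss a shift common to a whole library, and replicate 2 had more peaks at all 7 time points.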

Additional observations from a re-analysis of the deposited data

Results flagged for a closer look

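Counts of called regions moved in opposite directions at different time points for 2 of the 8 genes, relative to the mean of the 0 h libraries, with both libraries of each time point listed here on the same side of it. For Axin2 the mean was higher by 1 region at 8 h and by 2.5 at 16 h. At 2 h the difference was -1.5, at 24 h also -1.5, and at 48 h it was -4. For Tcf7l1 it was higher by 0.5 at 4 h and by 4.5 at 16 h. At 2 h the difference was -2, at 8 h it was -3, at 24 h it was -2.5 and at 48 h it was -4.5. The difference between time points was not tested, and all of these values share the same 0 h libraries. With 2 libraries per time point, no library could be examined as an outlier.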

How the results depend on the processing

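The fall of Lef1 kept its direction and its side of the threshold in 9 alternatives, with adjusted p-values from 0.00123 to 0.0191 by the permutation test, and lost the call where a replicate was left out. With 7 libraries no region can pass the trend test. Leaving out replicate 1 or 2 gave 0 Wnt target genes falling and 0 of their regions rising or falling. It gave 13 to 16 regions lost at 2 h, 13 to 20 at 4 h, 17 to 24 at 8 h, 13 to 19 at 16 h and 20 to 25 at 24 h, and 11 to 16 gained at 4 h and 11 to 15 at 48 h, since 1 library then decides each call. Without replicate 1 or 2, rho ranged from -0.15 to 0.39 for Tcf7 and from -0.81 to 0.29 for Cdx1, and the 0 h minus later difference of Axin2 from -0.5 to 1.67 regions.

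With the 50000 highest peaks per library, 5, 7 and 8 regions were gained at 4, 8 and 16 h, and 14 rather than 8 regions fell. With 50% of a region covered, 5 were gained at 48 h and 7 were shared with 0 h. A limit of 20 kb left 52 regions, 21 open in both 0 h libraries. Then 6, 4, 6, 8 and 4 were gained at 2, 4, 8, 16 and 48 h, and 1, 5, 7, 6, 7 and 10 were lost at 2, 4, 8, 16, 24 and 48 h, with 8 shared at 48 h, 2 rising and 5 falling. A limit of 100 kb gave 11 lost at 2 h and 16 at 16 h. Calls in at least 1 library gave 17, 18, 22, 19 and 27 lost at 2, 4, 8, 16 and 24 h, and 15 gained at both 24 and 48 h. With every transcript start 2 genes fell, Lef1 and Lgr5. Whole regions held the TCF/LEF core in 41.9% (29.7% of all regions with a gene) and the GATA core in 28.0% (27.2%), and the 7-base core ATCAAAG was in 9.68% of windows (3.15%). Beyond the fewer peaks, regions or libraries that an alternative leaves by construction, the cause was not tested.

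Among single genes, where none was past the threshold as reported, rho reversed for Tcf7 (-0.0288 with 50000 peaks, -0.29 with 50% coverage, -0.12 at 20 kb, -0.10 without the 0 h libraries, -0.15 by base pairs), for Nkd1 (-0.0375 with 50% coverage, -0.22 with every start, -0.14 at 20 kb), for Lgr5 (0.0945 with 50% coverage) and for Axin2 (0.47 at 20 kb). The 0 h minus later difference reversed for Lgr5 (0.667 regions with every start, 0.917 at 100 kb, 43.6 bp by base pairs), Axin2 (-1.08 at 20 kb) and Nkd1 (0.333 at 100 kb). The trend call was lost for Nkd1 −41.6 kb with 50% coverage and without the 0 h libraries, where it was also lost for Sp5 +10.1 kb and Axin2 −33.2 kb. With a replicate block, 4 regions rose and 7 fell, 1 gene fell, and Tcf7l1 −24.6 kb was no longer past the threshold (exact permutation test, adjusted p = 0.0555). Pairing by replicate number was judged only by the correlations given above, and replicate 2 had more peaks at all 7 time points.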
